A study of Mus musculus with 12 samples.

Results

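TRIM proteins are a large family of ubiquitin ligases, and 62 of the 29428 genes in the table are named Trim followed by a number, which is how the members were chosen. They were measured by poly(A) RNA-seq in STHdhQ7/Q7 and STHdhQ111/Q111 cells, immortal striatal cell lines of mice whose huntingtin carries either 7 or 111 glutamines, labelled normal and HD. Cells of either line were left nontreated (Q7-C and Q111-C) or were given IFNγ (100 ng/mL) and LPS (5 μg/mL) together for 24 h before harvest, which gave the groups Q7-T and Q111-T. There were 3 libraries per group and 12 in all. Each genotype is represented by 1 immortalized line, so the effect of the glutamine repeat and other differences between the lines cannot be told apart. The study calls the libraries of a group biological replicates, and the sources used here do not say whether they came from separate cultures, so the p-values measure the spread between these libraries. Of the 62 TRIM genes, 44 reached at least 0.5 TPM (a level scaled for transcript length and library total) in at least 3 libraries and were tested among 16127 genes.

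Most TRIM proteins carry a RING domain, which transfers ubiquitin to a substrate, followed by B-box zinc fingers and a coiled coil through which they assemble. The end of the protein differs between members and sets what each one binds, so that some sense viral or misplaced proteins, others read chromatin, and others bind microtubules or RNA. Many TRIM genes respond to interferons, and several TRIM proteins ubiquitinate the sensors and adaptors of the antiviral response. TRIM proteins have also been studied for the clearance of aggregated proteins, including those with long glutamine tracts.

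The libraries held between 57505990 and 96417834 estimated counts. The interferon and LPS response genes Irf1, Gbp2, Cxcl10 and Nos2 were called higher in the treated cells of both lines. The labels call the cells neuronal. Of 11 neuron markers, 8 were in the table, and Snap25, Syt1, Gad1 and Gad2 stayed under 0.5 TPM in every library. The 8 summed to 26.2 to 33.2 TPM in Q7-C, 61.4 to 89.3 TPM in Q7-T, 10.6 to 12.5 TPM in Q111-C and 30.2 to 34.1 TPM in Q111-T, with Tubb3 the highest in all treated libraries. The 7 mesenchymal markers summed to 4423 to 5199, 3402 to 3915, 4202 to 4380.2 and 1725 to 2053 TPM in the same order of groups, lowest in Q111-T. Of 9 macrophage or microglia markers 6 were in the table, of which 5 stayed under 0.5 TPM in every library (Ptprc, Itgam, Csf1r, C1qa and P2ry12), and Tmem119 carried nearly all of a sum of 12.04 to 13.3, 3.25 to 3.49, 17.7 to 20.5 and 5.00 to 5.80 TPM. The 6 astrocyte markers, with Gfap, Aqp4, Slc1a2 and S100b under 0.5 TPM throughout, summed to 1.05 to 1.98, 1.33 to 1.85, 9.01 to 11.1 and 4.16 to 5.24 TPM. The part of these shifts in the TRIM results was not tested. Library Q7-T 2 resembled Q7-C 1 more than any other library, and 4 libraries (Q7-T 1, Q7-T 2, Q111-C 1 and Q111-T 3) held skeletal muscle transcripts, so the counts of TRIM genes called in each comparison are also given without the first pair and without these 4.

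The most abundant TRIM gene was Trim28, a chromatin corepressor that silences retroelements, with 103 to 207 TPM over the 12 libraries. Trim59, which encodes a membrane-anchored member, followed with 45.5 to 133 TPM, and Trim35, a regulator of innate signalling, lay at 27.4 to 69.4 TPM. The ranges of Trim59 and Trim35 overlapped, and that of Trim28 overlapped the upper end of the Trim59 range. Trim44 and Trim47 lay close to Trim35, at 20.1 to 69.0 TPM and 39.4 to 75.7 TPM. The 62 genes together summed to 594 to 852 TPM in Q7-C, 517 to 779 TPM in Q7-T, 805 to 839 TPM in Q111-C and 809.7 to 1046 TPM in Q111-T. The Q7-T range lay under both Q111 ranges, and the other pairs of ranges overlapped. The 18 genes that were too low to be tested are Trim9, Trim10, Trim12a, Trim17, Trim29, Trim30b, Trim31, Trim38, Trim40, Trim43a, Trim43b, Trim43c, Trim55, Trim61, Trim66, Trim67, Trim71 and Trim80. Among the 44 tested genes, 24 passed the test in at least 1 comparison and 20 in none.

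**Figure D1:**
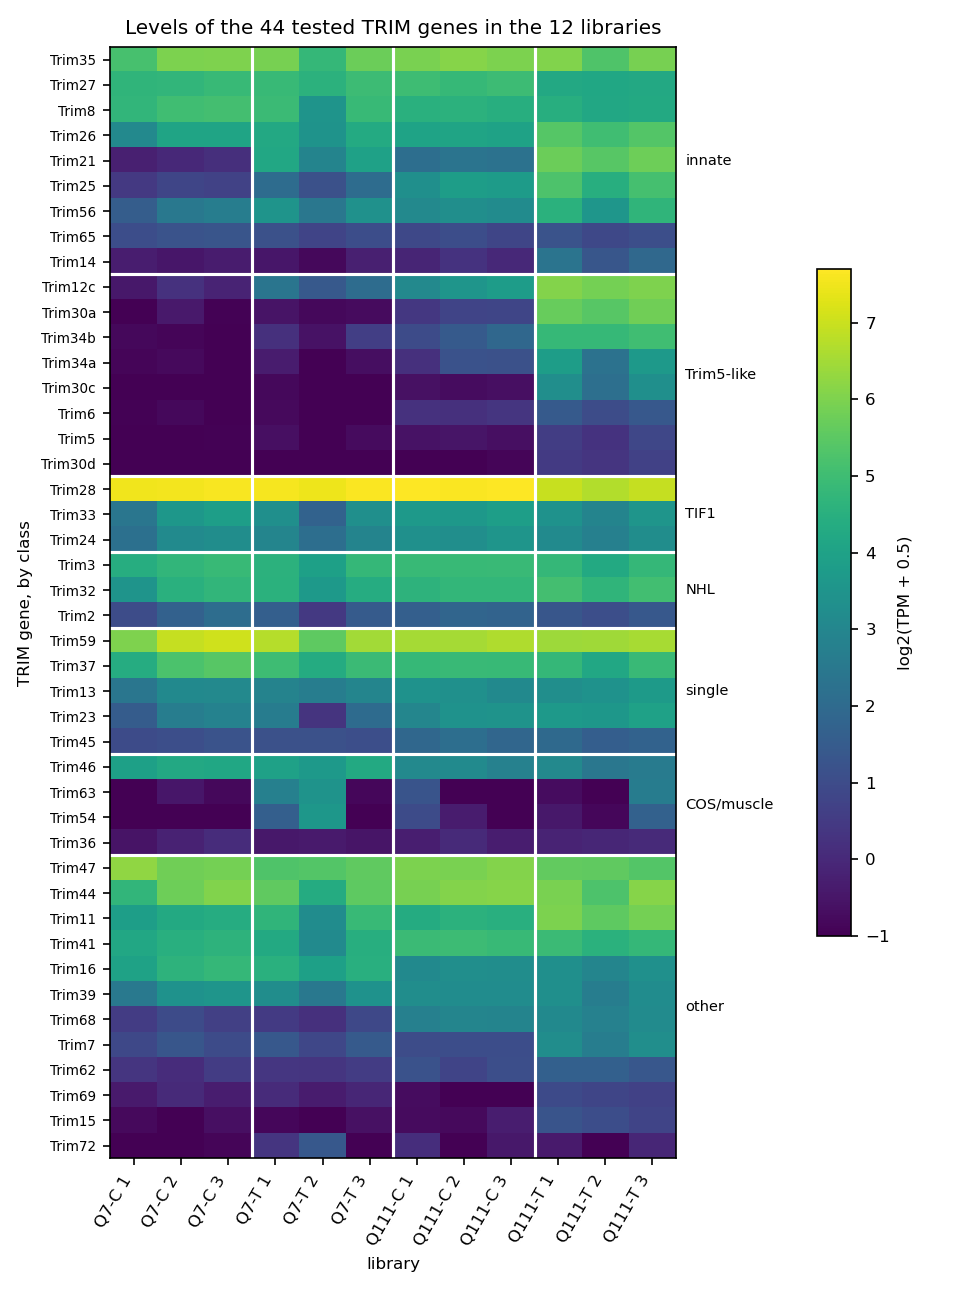
Heat map of log2(TPM + 0.5) for the 44 tested TRIM genes (rows, grouped by class and ordered by mean level) in the 12 libraries (columns). Trim28 is the brightest row in every library. The Trim5-like relatives are brightest in the 3 Q111-T libraries and mostly dark in the 6 Q7 libraries, less so Trim12c in Q7-T. Trim54, Trim63 and Trim72 stand out mainly in Q7-T 1, Q7-T 2, Q111-C 1 and Q111-T 3.

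The first comparison asked which TRIM genes responded to IFNγ/LPS in the STHdhQ7 cells. A gene was called when it changed at least 2-fold with an adjusted p under 0.05 (quasi-likelihood test of edgeR, p-values adjusted over all 16127 genes by the Benjamini-Hochberg method). TRIM transcripts that rose were Trim12c, Trim21, Trim25, Trim34b and Trim56, 5 of 44 (11.4%), against 2.93% of all tested genes called higher in this comparison. None was called lower with edgeR, limma or DESeq2, or had a lower value at an unadjusted p under 0.05 in edgeR (0 of 44, against 6.83% of all tested genes), and 1.11% of all tested genes were called lower. In bulk RNA a change in the number of cells of a kind and a change in the RNA per cell cannot be told apart. The median log2 fold change was 0.09 over the 44 genes and 0.00 over all genes tested.

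Trim21 encodes the cytosolic receptor that binds antibody-coated particles and marks them for degradation. Its transcripts lay at 0.346, 0.496 and 0.637 TPM in Q7-C and at 18.2, 7.14 and 15.2 TPM in Q7-T. All 3 treated libraries were above all nontreated ones, with the lowest value in Q7-T 2. Over all tested genes, 5.55% were higher without overlap in this comparison. The log2 fold change was 4.88 ± 0.20 (standard error, n = 3 against 3, edgeR adjusted p = 1.76e-07). Trim12c, a rodent relative of Trim5, rose from 0.243, 0.694 and 0.413 TPM to 4.70, 2.22 and 3.72 TPM, again without overlap. This was 3.15 ± 0.27 on the log2 scale (edgeR adjusted p = 1.76e-05).

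Trim25, whose protein ubiquitinates the RNA sensor RIG-I, rose from 0.872, 1.28 and 1.16 TPM to 3.74, 1.73 and 3.72 TPM (1.61 ± 0.20, edgeR adjusted p = 0.000307). The groups did not overlap, but Q7-T 2 lay close to the nontreated libraries. Trim56, an antiviral ligase of innate signalling, lay at 2.44, 5.04 and 5.93 TPM and 10.9, 5.00 and 9.93 TPM in Q7-C and Q7-T. These groups overlapped in TPM, because Q7-T 2 fell between the Q7-C libraries, and the edgeR adjusted p was 0.0214 for a log2 fold change of 1.13 ± 0.25. The call for Trim56 ended when Q7-C 1, Q7-C 2, Q7-T 1 or Q7-T 3 was left out (highest adjusted p 0.0683). Trim34b was at 0.0693, 0.0391 and 0 TPM in Q7-C, about 2 read pairs in all, and at 0.656, 0.166 and 1.02 TPM in Q7-T, a ratio of 18.2 (95% counting interval 5.26 to 175), with an edgeR adjusted p of 0.00844.

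Without Q7-C 1 and Q7-T 2, 6 TRIM genes were called higher in Q7 cells, the same 5 and Trim5. Without the 4 libraries that held muscle transcripts, 4 of the 5 remained, and Trim56 did not. That fit holds 1 Q7-T library, which is assumed to vary like the other groups. With limma on log2(TPM + 0.5), Trim21 and Trim12c remained called.

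In the STHdhQ111 cells the same treatment raised 16 of 44 TRIM genes (36.4%), where 8.28% of all tested genes were called higher. No TRIM gene was called lower with any of the 3 tools, against 2.96% of all tested genes, and at an unadjusted p under 0.05 in edgeR 2 were lower (Trim27 and Trim28), against 13.2% of all tested genes. The median log2 fold change was 0.35 over the TRIM genes and 0.00 over all genes tested. Of 9 tested genes in the innate immune signalling class, 5 rose (Trim14, Trim21, Trim25, Trim26 and Trim56). Of the 8 tested Trim5-like relatives, 7 rose. Without the Q111-T libraries, 6 of the 16 (Trim5, Trim14, Trim15, Trim30c, Trim30d and Trim69) would not have reached 0.5 TPM in 3 libraries. They entered the test through the group in which they are high, and their calls do not count as support for the share of a class or of the family. Of the 12 tested members outside any class, Trim7, Trim11, Trim15 and Trim69 rose. None of the tested TIF1 (3), NHL repeat (3), single-architecture (5) or COS-box and muscle (4) genes was called in this comparison. Without the 4 libraries with muscle transcripts, 12 of the 16 remained (not Trim15, Trim30d, Trim34a and Trim56), and without Q7-C 1 and Q7-T 2 all 16 did.

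Trim21 lay at 3.86, 4.56 and 4.35 TPM in Q111-C and at 52.8, 43.1 and 53.8 TPM in Q111-T, with a log2 fold change of 3.64 ± 0.19 (edgeR adjusted p = 2.62e-07). These groups did not overlap, and each was narrow. Over all tested genes, 19.8% were higher without overlap in this comparison. Trim25 rose from 9.60, 13.8 and 13.1 TPM to 37.6, 21.6 and 34.4 TPM (1.44 ± 0.19, edgeR adjusted p = 0.000267). Trim26, an interferon-response ligase encoded in the major histocompatibility region of chromosome 17, lay at 16.0, 16.6 and 15.6 TPM without and 42.1, 32.0 and 40.9 TPM with treatment (1.34 ± 0.16, edgeR adjusted p = 0.000101). For both genes Q111-T 2 was the lowest treated library, and it was still above every nontreated one.

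Trim14, an adaptor at mitochondria that lacks a RING domain, was at 0.441, 0.698 and 0.498 TPM in Q111-C and 4.53, 2.04 and 3.35 TPM in Q111-T (2.66 ± 0.42, edgeR adjusted p = 0.000962). Its gene overlaps Nans on the opposite strand. Trim56 was at 8.05, 9.43 and 8.74 TPM and 23.1, 11.4 and 25.5 TPM, with Q111-T 2 just above the nontreated libraries (1.26 ± 0.25, edgeR adjusted p = 0.00420). This call ended without the 4 libraries with muscle transcripts (adjusted p = 0.0867) and with limma on log2(TPM + 0.5).

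Among the members outside the classes, Trim7, whose protein binds glycogenin and has antiviral activity, rose from 1.54, 1.57 and 1.56 TPM to 9.06, 5.87 and 9.33 TPM (2.45 ± 0.18, edgeR adjusted p = 3.13e-06). The 3 nontreated values lay within a narrow band, and all treated values were above them. Trim11, a ligase studied for the removal of misfolded proteins, lay at 19.8, 23.5 and 21.9 TPM in Q111-C and 63.1, 46.1 and 58.5 TPM in Q111-T (1.46 ± 0.21, edgeR adjusted p = 0.000510). The groups of Trim11 did not overlap, and the calls of both genes held with every single library left out.

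Trim69, whose protein associates with microtubules, was at 0.104, 0 and 0 TPM in Q111-C, about 2 read pairs in all and in 1 library, and at 1.45, 1.25 and 1.10 TPM in Q111-T. The ratio was 38.7 (95% counting interval 9.01 to 287) and the edgeR adjusted p 0.00345. The Trim69 gene overlaps Patl2 on the opposite strand. Its only listed transcript type is processed transcript and not protein-coding, so its calls cannot be read as changes of a coding mRNA. Trim15 was at 0.0975, 0.0825 and 0.313 TPM and 1.87, 1.57 and 1.23 TPM (3.30 ± 1.03, edgeR adjusted p = 0.0443). This call was lost when any 1 of the 6 Q111 libraries, Q7-C 3 or Q7-T 1 was left out, with a highest adjusted p of 0.159. The groups of neither gene overlapped.

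**Figure D2:**
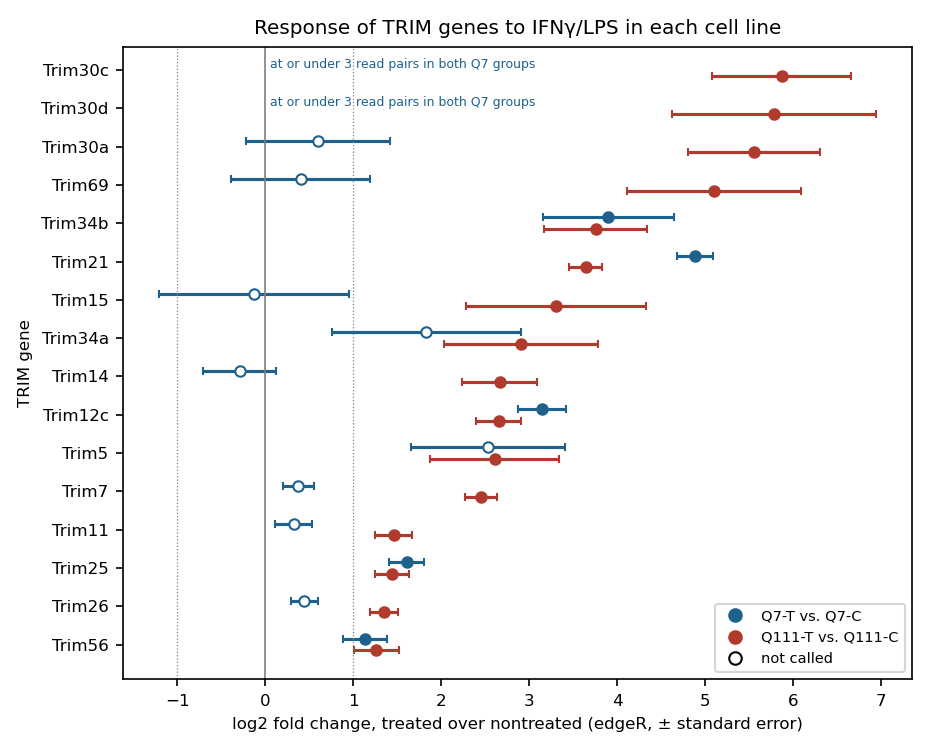
Log2 fold change of treated over nontreated cells (horizontal axis, edgeR, bars show the standard error) for the 16 TRIM genes called in either line, STHdhQ7 in blue and STHdhQ111 in red, with open symbols for values that were not called. Trim21, Trim12c, Trim25, Trim34b and Trim56 are filled in both colours, and the other 11 genes are filled in red only.

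All 10 Trim5-like relatives lie in one stretch of 289057 bases on chromosome 7 (GRCm38, chr7:104218793-104507849), and no other TRIM gene lies within it. The class holds the mouse relatives of the retroviral restriction factor TRIM5, which recognizes incoming capsids. Its summed level was 0.380, 1.15 and 0.454 TPM in Q7-C, 6.14, 2.55 and 5.07 TPM in Q7-T, 11.99, 17.5 and 20.7 TPM in Q111-C and 173, 141 and 178 TPM in Q111-T. The 4 ranges did not overlap, and the order was Q7-C, Q7-T, Q111-C, Q111-T.

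Trim12c carried the largest share of this sum in all 12 libraries, with 8.01, 11.2 and 13.4 TPM in Q111-C and 67.3, 58.8 and 64.7 TPM in Q111-T, a log2 fold change of 2.65 ± 0.26 (edgeR adjusted p = 2.30e-05). Trim30a, whose protein limits Toll-like receptor signalling, was at 0.837, 1.23 and 1.27 TPM in Q111-C and 50.4, 42.4 and 55.1 TPM in Q111-T. In the Q7 line the same gene was at 0, 0.262 and 0.0222 TPM without and 0.192, 0.0754 and 0.0949 TPM with treatment. The rise was 47.0-fold in Q111 cells (5.55 ± 0.75 on the log2 scale, edgeR adjusted p = 0.000290), while the Q7 groups overlapped (0.60 ± 0.82, adjusted p = 0.804). Without Q7-C 2, which holds most of the Q7-C reads, the Q7 difference was called as well (3.42, edgeR adjusted p = 0.00934).

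Trim34b rose from 1.49, 2.28 and 3.23 TPM to 27.8, 28.1 and 32.5 TPM in Q111 cells (3.75 ± 0.59, edgeR adjusted p = 0.000867). Its neighbour Trim34a lay at 0.646, 1.80 and 1.72 TPM and 13.7, 4.36 and 12.2 TPM (2.91 ± 0.87, edgeR adjusted p = 0.0385), with Q111-T 2 well under the other treated libraries. The Trim34a call ended when any of the 3 Q111-C libraries, Q111-T 1 or Q111-T 3 was left out (highest adjusted p 0.140). These 2 genes are close copies, and 42.5% of the 75-base stretches of the annotated Trim34b transcripts also occur in Trim34a, so reads may have been split between them.

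Trim30c was listed at 0 in the 3 Q7-C libraries and at 0.0711, 0 and 0 TPM in Q7-T, both at or under 3 read pairs over the group, so no fold is given. In Q111 cells it rose from 0.149, 0.108 and 0.133 TPM to 9.43, 3.999 and 9.47 TPM (5.87 ± 0.79, edgeR adjusted p = 0.000687). Trim30d was at 0 in all 6 Q7 libraries, had about 2 read pairs in Q111-C (0, 0 and 0.0487 TPM) and reached 0.907, 0.777 and 1.10 TPM in Q111-T. For Trim30d the ratio of Q111-T to Q111-C was 55.5 (95% counting interval 12.99 to 406). Its edgeR adjusted p was 0.0119, and without the 4 libraries with muscle transcripts the adjusted p was 0.0511. Of the 75-base stretches of Trim30a and Trim30d transcripts, 4.98% and 5.40% occur in another Trim30 gene, and for Trim30c none does.

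Trim5 itself was low, at 0.169, 0.206 and 0.140 TPM in Q111-C and 0.996, 0.723 and 1.30 TPM in Q111-T (2.61 ± 0.73, edgeR adjusted p = 0.0283). Leaving out any 1 of the 6 Q111 libraries ended this call (highest adjusted p 0.110), and 20.6% of its 75-base stretches are shared with other genes, mostly Trim12c and Trim12a. Trim6, which synthesizes free ubiquitin chains that activate the kinase IKKε, was at 0.692, 0.657 and 0.773 TPM and 2.28, 1.55 and 2.13 TPM. Its groups did not overlap, but it was not called by edgeR (1.57 ± 0.98, adjusted p = 0.336), whereas limma on log2(TPM + 0.5) called it (1.03, adjusted p = 0.000944). In Q7 cells the ratio of Q7-T to Q7-C was 6.61 (95% counting interval 1.03 to 47.2) for Trim5 and 3.95 (95% counting interval 1.07 to 22.5) for Trim34a. Neither was called by edgeR with all libraries, and DESeq2 called Trim5 (adjusted p = 0.0396), as did edgeR without Q7-T 2 (adjusted p = 0.00225). Trim6 was at 0.0883, 0 and 0 TPM in Q7-T. Of the 75-base stretches of Trim12c transcripts 16.9% are shared, with Trim5, Trim12a and Gm27995, a gene that overlaps it on the same strand. The untested cluster genes Trim12a and Trim30b stayed under 0.5 TPM in every library.

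**Figure D3:**
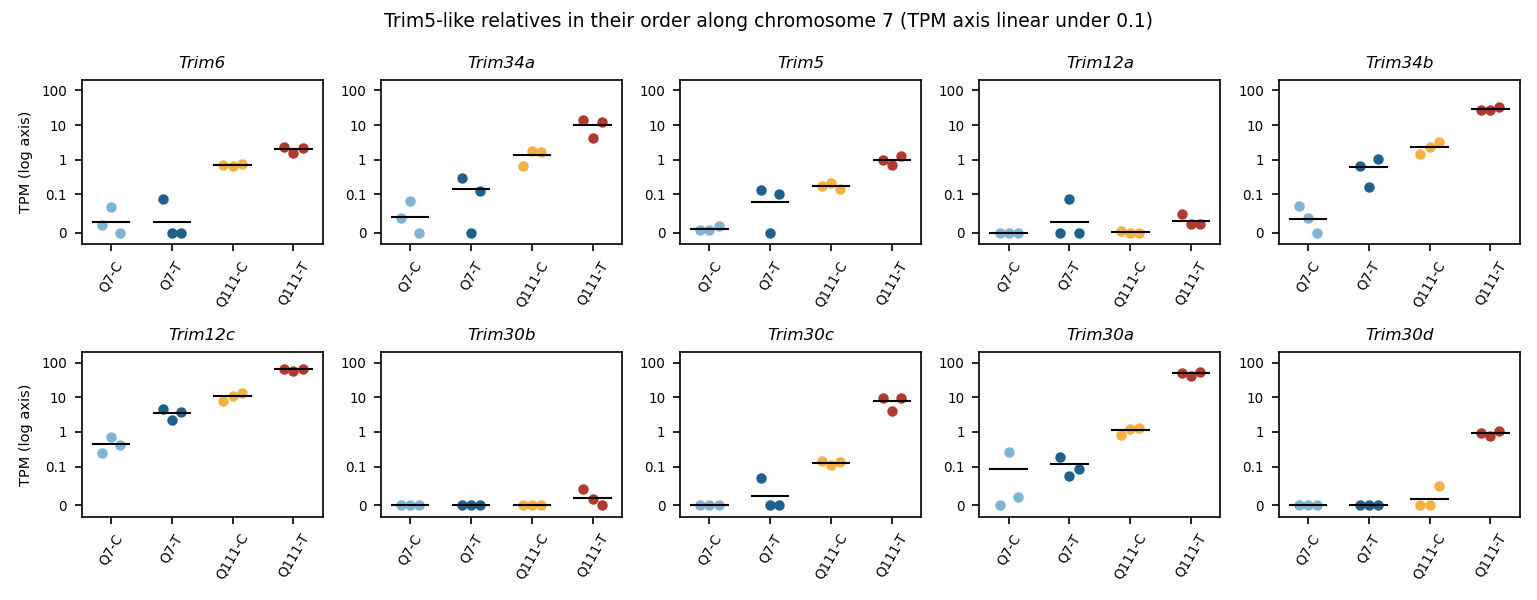
TPM of the 10 Trim5-like relatives in each library (points) with the group mean (line), in their order along chromosome 7. The vertical axis is logarithmic above 0.1 TPM and linear below. The 8 tested genes are highest in Q111-T, where Trim12c and Trim30a reach 67.3 and 55.1 TPM, and Trim30d is at 0 in both Q7 groups.

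The promoters of the members were read for 3 motifs in the 250 bases before and 50 bases after the RefSeq start site (GRCm38.p6), on both strands. They were the core of the interferon-stimulated response element bound by IRF factors (GAAANNGAA), the gamma-activated site of IFNγ-responsive genes (TTCNNNGAA, the same on both strands) and a core of the NF-kB site (GGGANTTTC). RefSeq promoters were found for 48 of the 62 members. The windows below are 60 bases long, and are written in the direction of transcription. Capitals mark the interferon-stimulated response element core, printed as its reverse complement where the core lies on the opposite strand. They are shown because they belong to members that rose in Q111-T and, for the first 5, to the chromosome 7 cluster. Trim34b meets both conditions too, with a core 211 bases before the start site, and its window is not printed.
Trim34a (chr7:104244443-104244502, plus strand): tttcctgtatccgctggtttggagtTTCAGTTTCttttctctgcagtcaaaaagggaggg
Trim5 (chr7:104288120-104288179, minus strand): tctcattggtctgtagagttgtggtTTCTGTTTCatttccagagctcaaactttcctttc
Trim12c (chr7:104353343-104353402, minus strand): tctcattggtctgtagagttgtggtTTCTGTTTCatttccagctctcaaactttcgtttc
Trim30a (chr7:104465194-104465253, minus strand): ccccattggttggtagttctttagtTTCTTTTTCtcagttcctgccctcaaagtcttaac
Trim30d (chr7:104507855-104507914, minus strand): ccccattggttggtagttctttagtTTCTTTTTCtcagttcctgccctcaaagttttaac
Trim21 (chr7:102565435-102565494, minus strand): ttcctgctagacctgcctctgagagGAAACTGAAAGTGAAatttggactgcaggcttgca
Trim25 (chr11:88999369-88999428, plus strand): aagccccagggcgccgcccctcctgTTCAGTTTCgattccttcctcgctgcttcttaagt
Trim26 (chr17:36836962-36837021, plus strand): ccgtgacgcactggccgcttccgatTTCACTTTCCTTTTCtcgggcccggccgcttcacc
Trim7 (chr11:48825998-48826057, plus strand): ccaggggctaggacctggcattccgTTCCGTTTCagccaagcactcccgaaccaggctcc

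Trim21 and Trim26 hold a pair of overlapping cores within 1 window. The 300-base promoters of Trim30a and Trim30d were 90.8% identical and those of Trim5 and Trim12c 82.8% identical, so their matches are not independent of each other. The interferon-stimulated response element core was found in 12 of the 48 members with a promoter. It was in 10 of the 14 members with a promoter that were called higher after treatment of the Q111 line (71.4%) and in 1 of the 21 that were tested and not called there (Trim2). Over all 32851 promoters of the table the share was 8.56%, and over all 27025 gene symbols 9.76%. Of the 14, those without this core were Trim15, Trim30c, Trim56 and Trim69. Trim5 and Trim30d, with the core, and Trim15, Trim30c and Trim69, without it, entered the test through Q111-T. Their calls do not count as support for the share of 71.4%. The remaining member with the core was Trim12a of the same cluster, which was too low to be tested. Its window had the same letters as that of Trim5, and it lay at 0.0219 to 0.0489 TPM in Q111-T.

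The gamma-activated site was in 6 of the 48 members (12.5%), 2 that rose in Q111-T (Trim15 and Trim30c), 2 tested and not called there (Trim45 and Trim46) and 2 untested (Trim31 and Trim38). It was in 8.30% of all promoters and 9.55% of all gene symbols. In Trim30c its window read as follows, with the site in capitals.
Trim30c (chr7:104400806-104400865, minus strand): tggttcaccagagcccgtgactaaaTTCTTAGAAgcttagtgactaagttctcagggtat
In Trim15 the site nearest to the start read as follows.
Trim15 (chr17:36867138-36867197, minus strand): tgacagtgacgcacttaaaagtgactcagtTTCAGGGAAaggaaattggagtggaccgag
The NF-kB core was in the promoter of 1 member, the untested Trim30b, and in 1.11% of all promoters. These matches are a description of the letters in the windows and were not tested for binding.

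The next comparison asked how the nontreated lines differed. In Q111-C, 10 of 44 TRIM genes were higher than in Q7-C (22.7%, against 7.62% of all tested genes) and 3 were lower (6.82%, against 7.61%). The median log2 difference was 0.16 over the TRIM genes and -0.02 over all genes tested. Since Q7-C and Q111-C also serve as the controls of the treatment comparisons, the values are given side by side with those above and not as separate support. The same counts of 10 and 3 were found without Q7-C 1 and Q7-T 2, and without the 4 libraries with muscle transcripts.

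Of the 8 tested Trim5-like relatives, 7 were higher in Q111-C, all but Trim30d. Trim5 and Trim30c among them, and Trim69 among the lower genes, entered the test through Q111-T. These calls do not count as support for the shares. Trim12c was at 0.243 to 0.694 TPM in Q7-C and 8.01 to 13.4 TPM in Q111-C, a difference of 4.30 ± 0.28 on the log2 scale (edgeR adjusted p = 1.16e-06). Trim34b and Trim34a had about 2 and 3 read pairs in Q7-C, and the ratios of Q111-C to Q7-C were 47.6 (95% counting interval 14.5 to 447) and 29.9 (95% counting interval 9.91 to 147). Trim30c, at 0 in Q7-C, was at least 1.85-fold higher in Q111-C, measured against 3 read pairs over the group. That bound is under the 2-fold of a call and rests on 24 estimated counts in Q111-C. The Trim30c call was lost with limma on log2(TPM + 0.5), log2(TPM + 1) and quantile-normalized values.

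Trim30a differed by 3.33 ± 0.76 (edgeR adjusted p = 0.00744). Its Q7-C libraries held 0, 40 and 4 estimated counts, and the log2 difference ranged from 0.95 to 6.18 over the alternatives. The Trim30a call was lost with only the 6 libraries compared and with limma on log2(TPM + 1). Trim6 lay at 0.0210, 0.0661 and 0 TPM in Q7-C, under every Q111-C library (4.30 ± 1.17, edgeR adjusted p = 0.0199), and its call ended without Q7-C 1 (adjusted p = 0.0596). For Trim5 the ratio was 10.3 (95% counting interval 1.86 to 70.0), resting on about 2 read pairs in Q7-C, and the call ended without Q7-C 1 or Q7-C 2 (highest adjusted p 0.0550).

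The other 3 genes that were higher in Q111-C were Trim21, Trim25 and Trim68, and none of their groups overlapped. Trim21 was 6.89-fold higher (2.78 ± 0.19, edgeR adjusted p = 1.29e-06) and Trim25 8.88-fold higher (3.15 ± 0.21, edgeR adjusted p = 1.08e-06). Trim68, a ligase encoded near Trim21 on chromosome 7, was at 0.952, 1.46 and 1.07 TPM in Q7-C and 6.41, 7.35 and 6.999 TPM in Q111-C (2.26 ± 0.22, edgeR adjusted p = 2.05e-05). After treatment it was at 0.885, 0.667 and 1.34 TPM and 8.31, 6.60 and 8.66 TPM, so its levels followed the line and were not called for the treatment in either.

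The lower genes were Trim16, Trim46 and Trim69. Trim16, a ligase of the autophagy of damaged lysosomes, was at 15.8, 24.1 and 26.9 TPM in Q7-C and 8.22, 9.25 and 9.09 TPM in Q111-C (-1.62 ± 0.13, edgeR adjusted p = 4.54e-06). Trim46, which bundles microtubules at the start of the axon, was at 14.8, 18.6 and 17.7 TPM and 7.97, 8.43 and 6.49 TPM (-1.47 ± 0.19, edgeR adjusted p = 0.000189). Both had groups without overlap, as had 12.6% of all tested genes in this direction. Trim69 was at 0.275, 0.520 and 0.312 TPM in Q7-C, and the ratio of Q7-C to Q111-C was 12.8 (95% counting interval 2.78 to 100.1). The Trim16 gene overlaps Fbxw10 on the same strand, and Trim46 overlaps Krtcap2 on the opposite one. For Trim69 the edgeR adjusted p was 0.0193, and the call ended without Q7-C 2, Q111-C 2 or Q111-C 3 (highest adjusted p 0.0609). TPM values of all genes were shifted between the lines by a median of 0.27 on the log2 scale (0.34 after treatment), which the scaling of the counts removes.

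After treatment the lines differed in more TRIM genes, with 17 of 44 higher on the Q111-T side (38.6%, against 13.3% of all tested genes) and 4 lower (9.09%, against 11.2%). The median log2 difference was 0.35 over the TRIM genes and -0.03 over all genes tested. The 8 tested Trim5-like relatives were among the higher ones, of which Trim5, Trim30c and Trim30d entered the test through Q111-T, as did Trim14 and Trim15 among the 17, so these 5 calls do not count as support for the share. Without Q7-C 1 and Q7-T 2 the counts were 16 and 2, and without the 4 libraries with muscle transcripts 14 and 2.

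Trim30a was at 0.0754 to 0.192 TPM in Q7-T and 42.4 to 55.1 TPM in Q111-T, 310.5-fold higher (8.28 ± 0.87, edgeR adjusted p = 2.92e-05). Trim30d, at 0 in Q7-T, was at least 27.1-fold higher, measured against 3 read pairs over the group. For Trim30c, with 1 read pair in Q7-T, the ratio was 305 (95% counting interval 54.4 to 12094). The other 5 relatives differed by 3.39 (Trim5), 3.81 (Trim12c), 5.26 (Trim34b), 5.84 (Trim34a) and 5.90 (Trim6) on the log2 scale, with edgeR adjusted p-values between 1.85e-06 and 0.00506. The Trim6 value rests on Q7-T 1, since Trim6 was at 0 in the other Q7-T libraries.

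Among the other higher genes, Trim15 was at 0.0828, 0 and 0.142 TPM in Q7-C and 0.0571, 0 and 0.149 TPM in Q7-T (4.12 ± 1.08 against Q111-T, edgeR adjusted p = 0.0112, and 0.177 without the 4 libraries with muscle transcripts). Trim14 was in Q7-T at 0.219, 0.0736 and 0.347 TPM (3.59 ± 0.45, edgeR adjusted p = 9.38e-05). Trim25, Trim68, Trim7, Trim21 and Trim11 were higher by 2.98, 2.62, 1.70, 1.55 and 1.10 on the log2 scale. The Trim11 value was under 2-fold without Q7-T 2 (with Q7-C 1 also left out, 0.90) and without the 4 libraries with muscle transcripts (0.74). Trim23, which carries an ARF GTPase domain and serves in autophagy, was at 5.72, 0.745 and 3.63 TPM in Q7-T and 12.6, 11.8 and 15.1 TPM in Q111-T (1.72 ± 0.44, edgeR adjusted p = 0.00940), with Q7-T 2 the lowest of all libraries. Trim62 was at 0.789, 0.760 and 0.974 TPM and 2.70, 2.64 and 2.054 TPM, without overlap, as were 33.9% of all tested genes in this direction. It differed by 1.13 ± 0.32 (edgeR adjusted p = 0.0155) and was under 2-fold, and so not called, without Q7-T 1 or Q111-T 2 (adjusted p from 0.0102 to 0.0496 over all single libraries left out).

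The lower genes were Trim16, Trim46, Trim27 and Trim28. Trim16 differed by -1.57 ± 0.13 and Trim46 by -1.75 ± 0.19 (edgeR adjusted p = 4.97e-06 and 4.31e-05), beside -1.62 and -1.47 in nontreated cells. Trim28 was at 191, 179 and 198 TPM in Q7-T and 124, 103 and 122 TPM in Q111-T (-1.15 ± 0.18, edgeR adjusted p = 0.000568), and in Q111-C it was at 207, 198 and 203 TPM. Its gene overlaps Zbtb45 on the opposite strand. Trim27, a nuclear and endosomal ligase, was at 28.4, 23.7 and 30.5 TPM and 18.5, 17.7 and 18.6 TPM (-1.01 ± 0.16, edgeR adjusted p = 0.000634). In both genes the 3 Q111-T libraries were the lowest of all 12. Without Q7-T 2, without Q7-C 1 and Q7-T 2, and without the 4 libraries with muscle transcripts both differences were under 2-fold (without Q7-C 1 and Q7-T 2, -0.89 for Trim28 and -0.83 for Trim27). The Trim27 difference was also under 2-fold without Q7-C 2, Q7-C 3, any 1 of the Q111-C libraries, Q111-T 1 or Q111-T 3. The effect of treatment in Q111 cells, -0.71 ± 0.18 for Trim28 and -0.62 ± 0.16 for Trim27, was under 2-fold, with edgeR adjusted p-values of 0.0184 and 0.0203.

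The interaction of line and treatment asked whether the response itself differed. It was larger in STHdhQ111 cells for 5 of 44 TRIM genes (11.4%, against 3.52% of all tested genes) and smaller for 1 (2.27%, against 1.20%). Trim14 and Trim69, among the 5, entered the test through Q111-T and do not count as support for the share. The median log2 difference in response over the TRIM genes was 0.09, and over all genes tested -0.02. Trim7 showed the smallest adjusted p. It lay at 1.36, 2.03 and 1.502 TPM in Q7-C and 2.11, 1.32 and 2.24 TPM in Q7-T, 2 overlapping groups, and its response was larger in Q111 cells by 2.08 ± 0.25 on the log2 scale (edgeR adjusted p = 0.000816). Trim14 was at 0.303, 0.221 and 0.292 TPM in Q7-C and 0.219, 0.0736 and 0.347 TPM in Q7-T, which overlapped, and the responses differed by 2.95 ± 0.59 (edgeR adjusted p = 0.0130). Both calls held with every single library left out.

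For Trim30a the responses differed by 4.95 ± 1.07 (edgeR adjusted p = 0.0191). Without Q7-C 2 the difference was 2.11 and was not called (adjusted p 0.289), and the call also ended without Q111-C 1 or Q111-C 2. Trim11 was at 14.3, 18.9 and 20.6 TPM in Q7-C and 25.2, 8.93 and 28.6 TPM in Q7-T, with Q7-T 2 under all Q7-C libraries and the other treated libraries above them. Its interaction was 1.14 ± 0.29 (edgeR adjusted p = 0.0464), and it was lost when any 1 library other than Q7-T 3 was left out (highest adjusted p 0.133). Trim69 gave 4.70 ± 1.24 (edgeR adjusted p = 0.0497), a value that rests on about 2 read pairs in Q111-C. That call remained only when the library left out was Q111-C 1 (highest adjusted p 0.115).

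Trim21 was the gene whose response was smaller in Q111 cells, with a difference of -1.24 ± 0.25 on the log2 scale (edgeR adjusted p = 0.0129). Its treated level was nevertheless higher in Q111-T, and its nontreated level in Q111-C was already above Q7-C. On log2(TPM + 1) the sign of this difference turned, to 0.0765, and with limma on log2(TPM + 0.5) it was not called. Trim26 passed the p threshold (0.0344) at less than 2-fold (0.90 ± 0.22). For Trim30d, at 0 in all Q7 libraries, the interaction could not be fitted by edgeR. Without Q7-C 1 and Q7-T 2, 5 genes were again called larger, of which 4 were the same, with Trim26 in place of Trim11, and Trim21 remained the smaller one. Without the 4 libraries with muscle transcripts, which leaves 1 Q7-T library, Trim69 alone was called, with Q111-C then at 0 counts. The differences of the others were 1.90 (Trim7), 2.22 (Trim14), 5.23 (Trim30a), -1.38 (Trim21) and 0.70 (Trim11) in that fit.

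**Figure D4:**
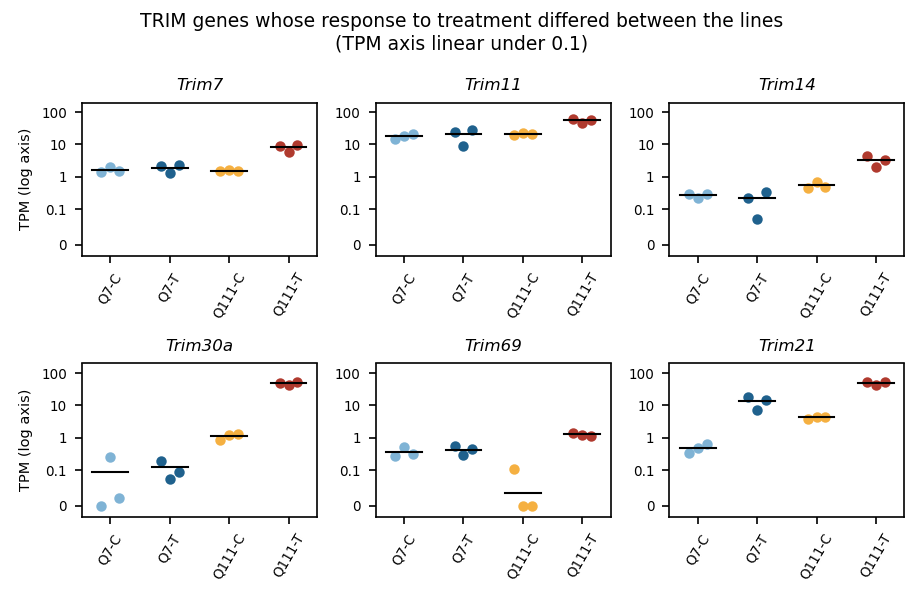
TPM in each library (points) with the group mean (line) for the 6 TRIM genes whose response to treatment was called different between the lines. The vertical axis is logarithmic above 0.1 TPM and linear below. Trim7, Trim14 and Trim30a rise in the Q111 panels and overlap between Q7-C and Q7-T, whereas Trim21 rises in both lines.

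Few genes of the remaining classes were called. Trim24 and Trim33, chromatin readers related to Trim28, lay at 3.90 to 11.02 TPM and 2.85 to 14.1 TPM, and neither was called by edgeR in any comparison. Their lowest values were in Q7-C 1 and Q7-T 2. The NHL repeat genes Trim3, Trim32 and Trim2, whose proteins act on synaptic, muscle and neurofilament proteins, were not called by edgeR either, and neither were Trim13, Trim37, Trim45 and Trim59 of the single-architecture class. With limma on log2(TPM + 0.1), Trim45 was called higher in Q111-C against Q7-C (1.02, adjusted p = 0.00163). Trim32, whose protein is mutated in a limb-girdle muscular dystrophy, was highest in Q111-T 1 and Q111-T 3 (33.7, 25.2 and 32.7 TPM in Q111-T) and lowest in Q7-C 1 and Q7-T 2. Trim8, an uncalled regulator of cytokine signalling, was at 26.0, 32.3 and 33.7 TPM in Q7-C and 29.7, 10.9 and 28.7 TPM in Q7-T, with Q7-T 2 far under the others.

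TRIM genes of striated muscle appeared mainly in 4 libraries. Trim63, the muscle atrophy ligase MuRF1, was at 6.33, 10.5 and 0.0552 TPM in Q7-T, 1.87, 0 and 0 TPM in Q111-C and 0.113, 0 and 5.71 TPM in Q111-T. Trim54, the related MuRF3, was at 2.62, 11.6 and 0 TPM in Q7-T and at 0 in every Q7-C library. Trim72, a membrane repair protein of muscle, was at 0.765, 2.14 and 0 TPM in Q7-T, and the untested Trim55 (MuRF2) was highest in the same Q7-T 2.

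The 4 libraries in which these genes stood out also held other muscle transcripts. A list of 14 skeletal muscle genes, chosen after the values were seen, summed to 6.29, 39.5 and 4.57 TPM in Q7-C, 897, 3481 and 2.92 TPM in Q7-T, 539, 4.10 and 3.54 TPM in Q111-C and 21.1, 2.68 and 718 TPM in Q111-T. Muscle actin Acta1 alone reached 153, 572 and 0.256 TPM in Q7-T. The order of the 4 highest libraries was Q7-T 2, Q7-T 1, Q111-T 3 and Q111-C 1 for this list. For the summed Trim54, Trim55, Trim63 and Trim72 it was the same. None of the 3 tested muscle TRIM genes was called in any comparison (edgeR adjusted p = 0.131, 0.276 and 0.164 in Q7-T vs. Q7-C), although DESeq2 called Trim54 higher in Q7-T. The source of the muscle transcripts was not tested.

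**Figure D5:**
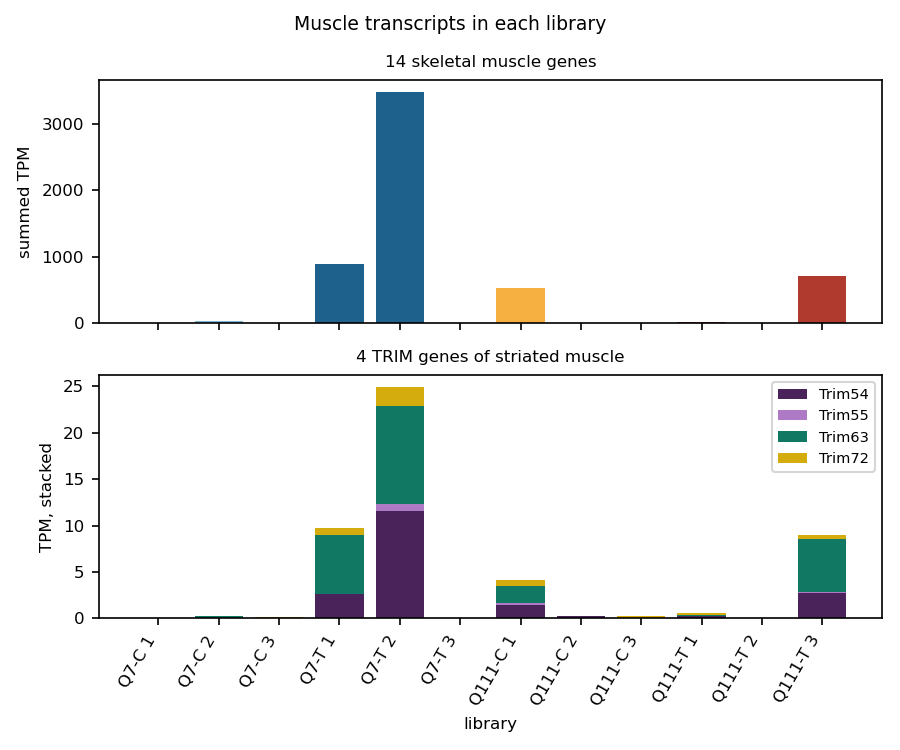
Summed TPM of 14 skeletal muscle genes (upper panel) and TPM of Trim54, Trim55, Trim63 and Trim72 stacked (lower panel) in each of the 12 libraries. Q7-T 2 is the highest in both panels, followed by Q7-T 1, Q111-T 3 and Q111-C 1, and the other 8 libraries are near 0 on these axes.

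Some TRIM proteins carry other names, and of 5 such genes 4 were tested. Pml (TRIM19), which builds the nuclear bodies named after it, lay at 21.2, 35.6 and 38.6 TPM in Q7-C, 40.2, 19.5 and 42.7 TPM in Q7-T, 22.1, 23.9 and 22.8 TPM in Q111-C and 121, 70.1 and 115 TPM in Q111-T. It rose in Q111 cells (2.23 ± 0.18, edgeR adjusted p = 6.39e-06), and its response was larger there than in Q7 cells (1.97 ± 0.25, edgeR adjusted p = 0.00109). Mid1 (TRIM18), a microtubule-binding ligase, was lower in Q111-C (4.96, 5.84 and 5.11 TPM) than in Q7-C (20.0, 43.7 and 47.5 TPM), with -3.07 ± 0.30 on the log2 scale (edgeR adjusted p = 2.23e-05).

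Of 17 ubiquitin, E1 and E2 genes, all tested, Uba7 and Ube2l6 rose with treatment in both lines and the other 15 were not called. This is 2 of 17 in each line, beside 2.93% of all tested genes called higher in Q7 and 8.28% in Q111 cells. They encode the E1 and E2 enzymes of the ubiquitin-like ISG15, for which TRIM25 can serve as ligase. Uba7 lay at 0.336, 0.781 and 0.757 TPM in Q7-C and 16.1, 12.9 and 19.3 TPM in Q7-T, and at 2.53, 2.99 and 3.77 TPM and 66.1, 36.9 and 61.3 TPM in Q111-C and Q111-T. Its log2 fold changes were 4.89 and 4.21, and those of Ube2l6 3.94 and 3.36. The interaction was called for neither (edgeR adjusted p = 0.281 and 0.359).

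Among 18 tested innate signalling partners of TRIM proteins, the same 6 rose in Q7-T and in Q111-T (Ddx58, Ifih1, Ikbke, Irf7, Isg15 and Sting1) and none was lower, beside 2.93% and 8.28% of all tested genes called higher and 1.11% and 2.96% called lower. Ddx58 encodes RIG-I, the substrate of TRIM25, and rose by 2.27 ± 0.29 in Q7 cells and 2.39 ± 0.29 in Q111 cells. Isg15 itself rose by 4.78 ± 0.22 and 3.98 ± 0.21. Ikbke, the kinase IKKε, was the one partner with a called interaction (1.03 ± 0.24, edgeR adjusted p = 0.0314). In nontreated cells 7 of the 18 were higher in the Q111 line, Aim2 and Cgas among them, and none was lower, beside 7.62% of all tested genes called higher and 7.61% called lower. Of 9 partners of TRIM28 in retroelement silencing, all tested, none was called in any of the 5 comparisons. At an unadjusted p under 0.05 in edgeR, 4 of them were lower in Q111-T than in Q111-C, beside 13.2% of all tested genes. Between Q111-T and Q7-T 2 were higher and 4 lower at that threshold, beside 23.9% and 23.8% of all tested genes.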

How the data were processed

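Stranded paired-end libraries of poly(A) RNA were compared, 12 in all (4 groups of 3, from the labels). According to the methods, the authors trimmed reads with Cutadapt, mapped them with HISAT2 to GRCm38 (Ensembl release 101) and estimated expression with StringTie. Whether strand was used is not given in the sources used here, so reads of overlapping antisense genes cannot be told apart. The authors deposited TPM values and estimated counts per gene, whole and not normalized. One read pair was taken as about 4 estimated counts, judged from the values, and 12 counts over a group (3 read pairs) as the floor. Intervals and floors cover counting error only.

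The members and gene lists were chosen with earlier results of these data known. Members called in any comparison were named with their values, uncalled ones mainly where most abundant. The 16127 genes that reached 0.5 TPM in 3 or more libraries entered edgeR's quasi-likelihood test (edgeR 4.0.16, R 4.3.3) with TMM scaling in one fit of 4 group means. Standard errors were derived from the F statistic. An exact permutation test of 3 against 3 libraries cannot give a p under 0.1, so none is reported for single genes. Alternatives used DESeq2 1.42.0, limma 3.58.1 on log2(TPM + pseudocount), other filters and libraries left out. On simulated counts with 200 of 16127 genes changed in Q111-T, 158 of 162 calls in Q111-T vs. Q111-C and 89 of 92 in the interaction were right, so 158 and 89 of the 200 were recovered. The changed genes were drawn from those with a mean above 200 estimated counts. These figures therefore do not cover calls of low genes such as Trim5, Trim15, Trim30d and Trim69. A chi-square test between replicates, on counts divided by 4, gave at least 5.06 per degree of freedom, so no pair of libraries agreed within counting noise. Promoters came from RefSeq, and shared sequence from GENCODE M21 transcripts, as 75-base stretches.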

Additional observations from a re-analysis of the deposited data

Results flagged for a closer look

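The response to IFNγ/LPS differed between the lines by the test of the difference itself (interaction of line and treatment, edgeR's quasi-likelihood test) for 6 TRIM genes. The log2 difference, with positive values for a larger response in STHdhQ111 cells, was 2.08 for Trim7, 2.95 for Trim14, 4.95 for Trim30a, 4.70 for Trim69, 1.14 for Trim11 and -1.24 for Trim21. Of these, the Trim7 and Trim14 values held their call under each of 24 alternatives but 1. The Trim30a value was 2.11 without Q7-C 2, that of Trim69 ranged from 1.06 to 9.26, and that of Trim21 from -1.40 to 0.0765. Trim11 lost its call under 18 alternatives. No group was large enough for single libraries to be tested as outliers.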

How the results depend on the processing

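Of 61 calls (a TRIM gene in a comparison), 35 held under every alternative that tested them, out of up to 25 per call. Of the single values under each alternative, 1367 kept direction and call, 146 kept the direction only and 1 turned, Trim21 in the interaction on log2(TPM + 1), at 0.0765. Trim21 was at 0.346, 0.496 and 0.637 TPM in Q7-C, and the part of the pseudocount in this turn was not tested. In Q7-T vs. Q7-C, the number called higher was 2, 3 and 2 with limma on log2(TPM + 0.5), + 0.1 and + 1, and 3 with only the 6 libraries compared. In Q111-C vs. Q7-C it was 6 with limma on log2(TPM + 1). In Q111-T vs. Q7-T the number called lower was 2 under all 4 limma settings, without Q7-C 1 and Q7-T 2, and without the 4 libraries with muscle transcripts. In the interaction the number called higher was 3 with no filter, 10, 8 and 12 with limma on log2(TPM + 0.5), log2(TPM + 1) and quantile-normalized values, and 1 without the 4 libraries with muscle transcripts. With log2(TPM + 0.5) the added genes were Trim15, Trim30c, Trim30d, Trim34a, Trim34b and Trim6. The number called lower there was 0 under all 4 limma settings and without these 4 libraries. The cause of these changes was not tested.

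With 1 library left out at a time, the number called higher ranged from 4 to 6 (Q7-T vs. Q7-C), 13 to 16 (Q111-T vs. Q111-C), 8 to 10 (Q111-C vs. Q7-C), 16 to 18 (Q111-T vs. Q7-T) and 2 to 4 (interaction). The number called lower ranged from 2 to 3 (Q111-C vs. Q7-C), 2 to 4 (Q111-T vs. Q7-T) and 1 to 2 (interaction), and stayed at 0 in both treatment comparisons. Leaving out 1 library also added calls, by edgeR, for Trim30a (without Q7-C 2) and Trim5 (without Q7-T 2) for the treatment of Q7 cells, Trim56 (without Q111-T 2) and Trim69 (without Q111-C 1) in Q111-T vs. Q7-T, and Trim26 (without Q7-C 1) and Trim28 (lower, without Q7-C 1 or Q7-T 1) in the interaction. The alternatives without Q7-C 1 and Q7-T 2 and without the 4 libraries with muscle transcripts were chosen after seeing the data. The replicate numbers did not pair the libraries, since 7 of 18 same-numbered pairs correlated above 0.1 (-0.58 to 0.45) and 2 of 12 libraries correlated best with their own number. With the replicate number as a block, 2 genes were called higher in the interaction and 14 in Q111-T vs. Q111-C, and the other counts were the same. Groups with a few read pairs, such as Trim5 and Trim34a in Q7-C and Trim69 and Trim30d in Q111-C, give ratios with wide counting intervals.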
